A study of Mus musculus with 16 samples.

Results

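The E2F transcription factors and the pocket proteins were examined as 10 genes, namely E2f1, E2f2, E2f3, E2f4, E2f6, E2f7, E2f8, Rb1, Rbl1 and Rbl2. They were picked by symbol from the 47069 genes of the count table, and all 10 were among the 13211 genes that passed the filter on low counts. The data are RNA-seq read counts from macrophages grown from bone marrow (BMMs) of 8 to 10 week old C57BL/6 mice. Marrow cells were grown in L929-conditioned medium, harvested on day 7 and primed overnight with 10 ng/mL IFNγ. Both groups were then activated for 1 hr with 100 ng/mL Salmonella LPS and ovalbumin coated with rabbit IgG (LPS/ICs). One group received 25 µM DAPT, a γ-secretase inhibitor (GSI) that blocks the cleavage of Notch receptors and of other substrates of the enzyme, and the other received 0.01% DMSO as vehicle. No group without LPS/ICs was analysed here, so each difference below is between 2 activated groups. Each group has 2 libraries, and nothing says whether the 2 came from separate cultures or mice. The p-values therefore measure the spread between these libraries, which may be technical.

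E2F proteins bind DNA with a DP partner and switch the genes of DNA replication and mitosis on or off. E2f1, E2f2 and E2f3 are known as activators that drive entry into S phase. E2f4 represses mainly through the pocket proteins it carries, E2f6 represses through a Polycomb complex, and E2f7 and E2f8 bind DNA without a DP partner and repress late in S phase. The pocket proteins, which are the products of Rb1, Rbl1 (p107) and Rbl2 (p130), bind E2Fs until cyclin-dependent kinases phosphorylate them. In resting cells, E2f4 and p130 join the MuvB core in the DREAM complex, which holds cell cycle genes silent. Macrophages grown from marrow with L929-conditioned medium, a source of CSF-1, still divide in culture.

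Stretches of DNA just upstream of 4 of these genes are given first, because E2F genes and Rbl1 are known to be targets of E2F factors themselves. The windows come from RefSeq on GRCm38.p6, and each runs from 250 bases before to 50 bases after an annotated start. Such a window was found for 8 of the 10 genes, and none was found for E2f4 or Rb1. The E2F motif was searched as TTTCCCGC, TTTGGCGC, TTTCGCGC or TTTGCCGC, and the cell cycle homology region (CHR), to which the MuvB core binds, as TTTGAA, in each case on both strands. In the lines below, 60 bases of each window are written 5′ to 3′ on the strand of the gene, and the capitals mark the motif, which is of the E2F kind in E2f7, E2f3 and Rbl1 and of the CHR kind in E2f8. No annotated exon overlaps any of these 4 stretches.
E2f7, chr10:110745219-110745278, plus strand: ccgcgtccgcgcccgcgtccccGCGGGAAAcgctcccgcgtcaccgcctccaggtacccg
E2f8, chr7:48881597-48881656, minus strand: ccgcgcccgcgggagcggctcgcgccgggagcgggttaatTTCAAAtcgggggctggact
E2f3, chr13:29986064-29986123, minus strand: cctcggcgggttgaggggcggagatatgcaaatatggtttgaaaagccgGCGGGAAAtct
Rbl1, chr2:157204535-157204594, minus strand: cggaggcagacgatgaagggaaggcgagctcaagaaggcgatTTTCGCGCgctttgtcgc

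The E2F motif began 198 bases before the start of E2f7, 11 bases before that of E2f3 and 18 bases before that of Rbl1. A match also lay 40 bases after a start of E2f2, so that 4 of the 10 windows of these 8 genes held one, against 744 of all 32851 windows (2.27%). Of the 4 genes with a match, E2f2 and E2f7 fell with GSI, and E2f3 and Rbl1 did not pass the test, as described below. E2f1, E2f6, E2f8 and Rbl2 held none of these E2F letters. A link between the letters and the change with GSI was not tested. The CHR letters were present in E2f2, E2f3, E2f8 and Rbl2, beginning 31, 23, 20 and 201 bases before a start, and in 17.9% of all windows. In E2f2 the CHR match and the E2F match lay in windows of different starts. TGGGAA, the core to which the Notch partner RBPJ binds, was found on either strand in E2f3 and Rbl2 and in 25.6% of all windows. No match of one motif in these genes overlapped a match of another. A match describes the letters only, and its absence says nothing about the binding of a factor outside or inside the window.

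The libraries held 42694655 and 56932059 counts in DMSO and 48483661 and 49511733 in GSI. At this depth 3 counts, taken as the floor, corresponded to 0.0527 to 0.0703 CPM, the counts of a gene scaled to a fixed library size. All 8 macrophage markers were above 1 CPM in every library. Of these, 6 fell with GSI, namely Adgre1, Csf1r, Itgam, Lyz2, Fcgr1 and Cd14, whereas Mertk rose (log2 fold change 0.64, FDR 1.62e-06) and Cd68 had 0.18 (FDR 0.0616). Over all genes tested, 21.9% were lower and 19.0% higher. The FDR was 0.0608 for Adgre1 without DMSO replicate 2 and 0.16 without GSI replicate 1, 0.0795 to 0.0976 for Lyz2 in 3 of the 4 fits that left out a library (each but that without GSI replicate 2), and 0.0222 for Cd68 without GSI replicate 2. Their summed level, to which Lyz2 contributed 4415 to 5420 CPM, was 12280 and 12480 CPM in DMSO and 9489 and 10410 CPM in GSI. Summed markers of granulocytes, B cells, T and NK cells, erythroid cells, mast cells and stroma stayed between 0.0176 and 1.45 CPM in each library, and Elane, Prtn3, Hba-a1, Mcpt8 and Cpa3 were at 0 in all 4. Dendritic cell markers summed to 5.36 and 5.58 CPM in DMSO and to 4.28 and 4.33 CPM in GSI, of which Xcr1 was the only gene above 1 CPM. Mki67, a gene of cycling cells, was at 233 and 227 CPM in DMSO and at 159 and 143 CPM in GSI, a log2 fold change of -0.61 ± 0.07 (SE; FDR 1.22e-06). Fewer cycling cells and less RNA of these genes per cell cannot be told apart in bulk samples, here and for the genes below that fell. The part of these marker levels in the differences below was not tested.

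In the comparison of GSI with DMSO, 5 of the 10 genes had lower mRNA with GSI and none had higher mRNA at an FDR under 0.05 in edgeR's quasi-likelihood test. Those that fell were the atypical repressors E2f7 and E2f8, the activator E2f2 and the pocket proteins Rb1 and Rbl2. Among all 13211 genes tested, 21.9% were lower and 19.0% were higher by the same rule, and 40.8% passed it in either direction. The median log2 fold change of the 10 genes was -0.32, beside 0.01 over all genes tested. The values of 7 of the 10 genes did not overlap between groups and were lower with GSI, and none was higher without overlap, whereas 34.8% of all genes were lower and 35.8% higher in that way. Only E2f7 also passed the study's limit of an absolute log2 fold change above 1.5, which 2.17% of all genes did in the lower direction.

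**Figure D1:**
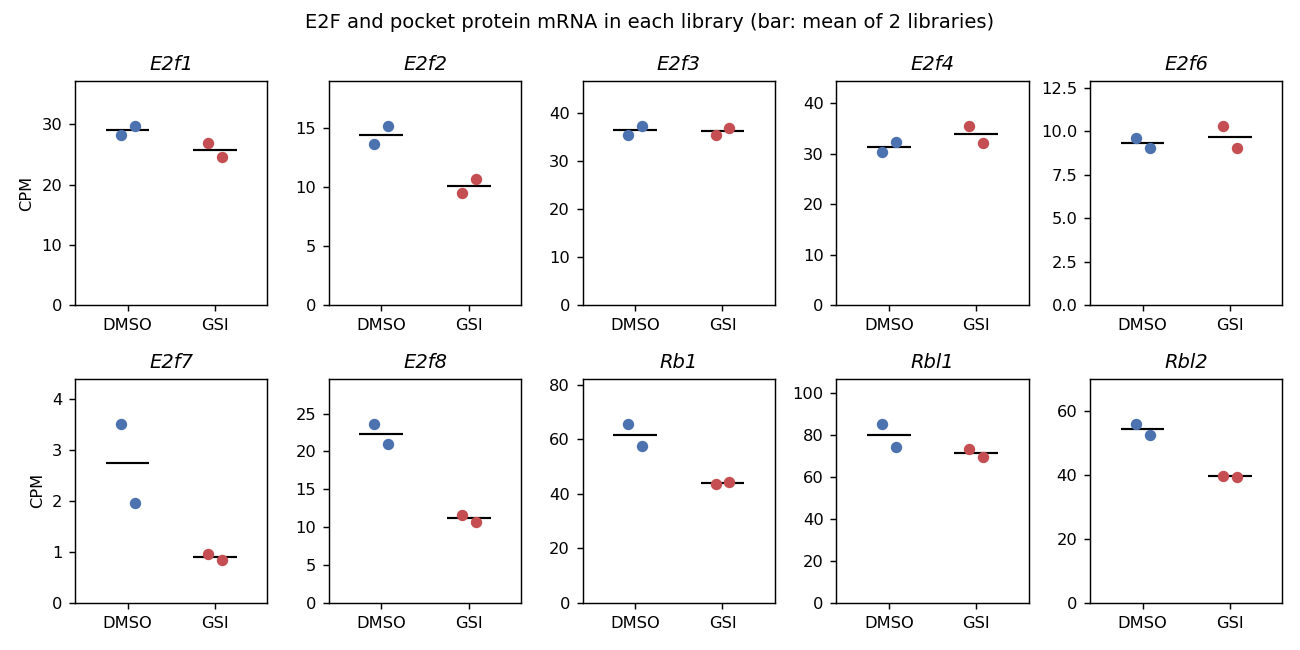
CPM of the 10 genes in each library (points, 2 DMSO and 2 GSI) with the mean of each group (bar); each vertical axis starts at 0 and has its own scale. The GSI points lie below the DMSO points in 7 of the 10 panels, whereas the groups overlap for E2f3, E2f4 and E2f6.

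Among the activators, E2f2 was the one that fell. It lies on chr4:136172394-136196057 (GRCm38, plus strand). Its level was 13.7 and 15.2 CPM in DMSO and 9.54 and 10.7 CPM in GSI, from 461 to 863 counts per library. Both GSI libraries were below both DMSO libraries, and the log2 fold change was -0.52 ± 0.10 (SE; 95% interval -0.73 to -0.31; FDR 0.000307), or 1.43-fold lower. E2f1, on chr2:154559407-154569892 (minus strand), is the activator also known for inducing apoptosis. Its level was 28.3 and 29.7 CPM in DMSO and 26.9 and 24.5 CPM in GSI. The groups did not overlap, but the difference was small, with a log2 fold change of -0.18 ± 0.08 and an FDR of 0.091 (95% interval -0.35 to -0.01). It was -0.24 without GSI replicate 1 (FDR 0.0499) and -0.11 without GSI replicate 2 (FDR 0.427). E2f3, on chr13:29906575-29986063 (minus strand), was at 35.4 and 37.3 CPM in DMSO and at 35.4 and 36.9 CPM in GSI. These values lay on top of each other, and the log2 fold change was -0.01 ± 0.08 with a 95% interval of -0.17 to 0.15 (FDR 0.948).

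The repressors differed among themselves in the same comparison. E2f8, on chr7:48866429-48881596 (minus strand), had 23.7 and 21.0 CPM in DMSO and 11.7 and 10.7 CPM in GSI. Its level with GSI was 1.99-fold lower, with a log2 fold change of -0.99 ± 0.09 (95% interval -1.19 to -0.80; FDR 5.34e-08), and the gap between groups was wider than the gap within either. E2f7, on chr10:110745439-110787384 (plus strand), had the lowest counts of the 10 genes, with 151 and 111 counts in DMSO and 46 and 41 counts in GSI. Its level was 3.51 and 1.96 CPM in DMSO and 0.952 and 0.830 CPM in GSI. The 2 GSI libraries were close to each other and the 2 DMSO libraries were not. The log2 fold change of E2f7 was -1.59 ± 0.25 (95% interval -2.12 to -1.06; FDR 4.18e-05), or 3.00-fold lower. It was -1.13 without DMSO replicate 1 and -1.49 without GSI replicate 2, short of the limit of 1.5 in both cases, with an FDR of 0.000363 and 5.38e-08. In such fits 1 group has a single library, which is assumed to vary like the pair in the other group.

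E2f4 and E2f6, the repressors that act through pocket proteins and Polycomb proteins, were not lower. E2f4, on chr8:105297663-105305370 (plus strand), was at 30.4 and 32.4 CPM in DMSO and at 35.6 and 32.2 CPM in GSI, with a log2 fold change of 0.11 ± 0.08 (95% interval -0.06 to 0.28; FDR 0.295). The lower GSI value fell within the DMSO range. E2f6, on chr12:16810963-16839742 (plus strand), was at 9.62 and 9.01 CPM in DMSO and at 10.3 and 9.01 CPM in GSI, with a log2 fold change of 0.05 ± 0.11 (95% interval -0.17 to 0.28; FDR 0.719). The second library of each group had almost the same value. For both genes the interval excludes a fall of the size seen in E2f8.

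Of the pocket protein genes, Rb1 and Rbl2 fell and Rbl1 did not pass the test. Rb1, the retinoblastoma gene on chr14:73183673-73325822 (minus strand), was at 65.8 and 57.4 CPM in DMSO and at 43.6 and 44.5 CPM in GSI. Rbl2, which encodes the p130 of quiescent cells and lies on chr8:91070057-91123844 (plus strand), was at 56.1 and 52.4 CPM in DMSO and at 39.6 and 39.5 CPM in GSI. The GSI libraries lay below the DMSO libraries for both genes and were close to each other. The log2 fold change was -0.48 ± 0.08 for Rb1 (95% interval -0.65 to -0.32; FDR 5.02e-05) and -0.46 ± 0.07 for Rbl2 (95% interval -0.61 to -0.30; FDR 5.07e-05). Rbl1, whose p107 rises in cycling cells and which lies on chr2:157145893-157204534 (minus strand), was at 85.5 and 74.3 CPM in DMSO and at 73.5 and 69.7 CPM in GSI. Its groups were separated by a narrow gap, and its log2 fold change was -0.16 ± 0.08 (95% interval -0.32 to 0.01; FDR 0.114). It was -0.05 without DMSO replicate 1 (FDR 0.723) and -0.26 without DMSO replicate 2 (FDR 0.0335).

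Exons of Rb1 share 896 bases with Rcbtb2 and Lpar6 on the other strand, and exons of Rbl2 share 693 bases with Aktip and 892 with Gm45464, which was not analysed here. The strand setting of the counting is not given in the sources used here. The counts of Rcbtb2, Lpar6 and Aktip, scaled to the shared length, came to at most 8.5% of the counts of Rb1 and 3.80% of those of Rbl2. For E2f8 and E2f7 the same share was at most 0.35%. After subtraction of these scaled counts, as if all had been added to the gene, the log2 fold change was -0.50 for Rb1 and -0.47 for Rbl2. These are ratios of summed levels and not fitted values. E2f7, with 0 counts subtracted, had -1.62 in this way and -1.59 in the fit. Whether any reads of the other strand were added is not known.

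**Figure D2:**
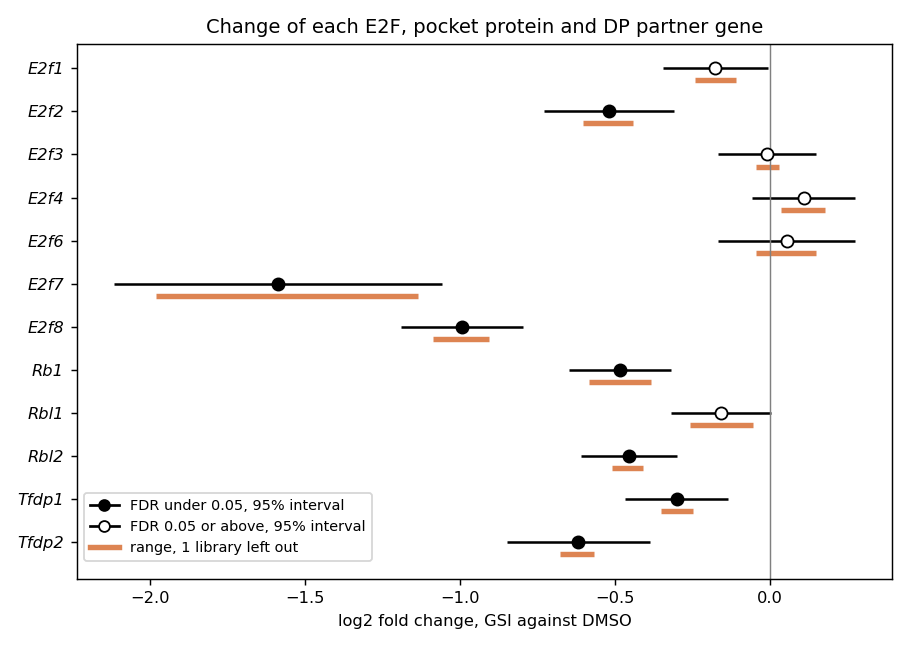
Log2 fold change of each of the 10 genes and of the DP partners Tfdp1 and Tfdp2, GSI against DMSO, with its 95% interval (black line; filled circle for an FDR under 0.05) and the range over the 4 fits that each leave out 1 library (orange). E2f7 has the widest interval and the widest range, from -1.98 to -1.13, and the intervals of E2f3, E2f4, E2f6 and Rbl1 include 0.

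Levels of different genes were compared per kb of exon sequence. With DMSO, Rbl1 (14.3 and 12.4 CPM per kb) and E2f4 (12.4 and 13.2) stood highest and overlapped each other. Rb1 (10.9 and 9.55), E2f1 (8.97 and 9.43), Rbl2 (7.43 and 6.94) and E2f3 (6.52 and 6.87) followed. These 4 did not overlap, although Rb1 and E2f1, and likewise Rbl2 and E2f3, were separated by less than the gap between the DMSO libraries of either gene. E2f8 (4.35 and 3.85), E2f2 (2.80 and 3.12), E2f6 (1.70 and 1.59) and E2f7 (0.390 and 0.217) were lowest. With GSI, Rb1 (7.25 and 7.40) was below E2f1 (8.52 and 7.78) and Rbl2 (5.24 and 5.23) was below E2f3 (6.52 and 6.80). E2f8 (2.14 and 1.97) could no longer be ranked against E2f2 (1.95 and 2.19), whose values enclosed it.

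The comparison of activators with repressors depended on which repressors were counted. The mean log2 CPM of E2f1, E2f2 and E2f3 minus that of E2f4, E2f6, E2f7 and E2f8 was 0.93 and 1.29 in DMSO and 1.37 and 1.56 in GSI. The groups did not overlap, and the difference was larger with GSI by 0.36. Against E2f7 and E2f8 alone, it was 1.39 and 1.99 in DMSO and 2.62 and 2.80 in GSI, larger with GSI by 1.02. Against E2f4 and E2f6 alone, it stayed above 0 but was smaller with GSI, with 0.48 and 0.58 in DMSO and 0.12 and 0.32 in GSI, a change of -0.31. With GSI, the mean of the activators thus stood higher relative to E2f7 and E2f8 and lower relative to E2f4 and E2f6. The activators differed among themselves, with a fitted log2 fold change of -0.52 for E2f2, -0.18 for E2f1 and -0.01 for E2f3. The mean fitted log2 fold change was -0.23 for the 3 activators and -0.60 for the 4 repressors, a difference of 0.37 that ranged from 0.19 without DMSO replicate 1 to 0.54 without DMSO replicate 2. The pooled SD between libraries of 1 group was 0.20 for the difference over all 4 repressors. No test was applied to these differences, which are scores over genes chosen with earlier results known.

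As a share of the mRNA of these 7 E2F genes, per kb of exon, the activators held 49.3% and 50.7% in DMSO and 47.8% and 49.97% in GSI. This share overlapped between groups. E2f7 and E2f8 held 12.8% and 10.6% in DMSO and 6.33% and 6.14% in GSI. The part that E2f4 and E2f6 held was 38.0% and 38.7% in DMSO and 45.9% and 43.9% in GSI. The share of the atypical repressors was thus lower with GSI and that of E2f4 and E2f6 higher, each without overlap.

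**Figure D3:**
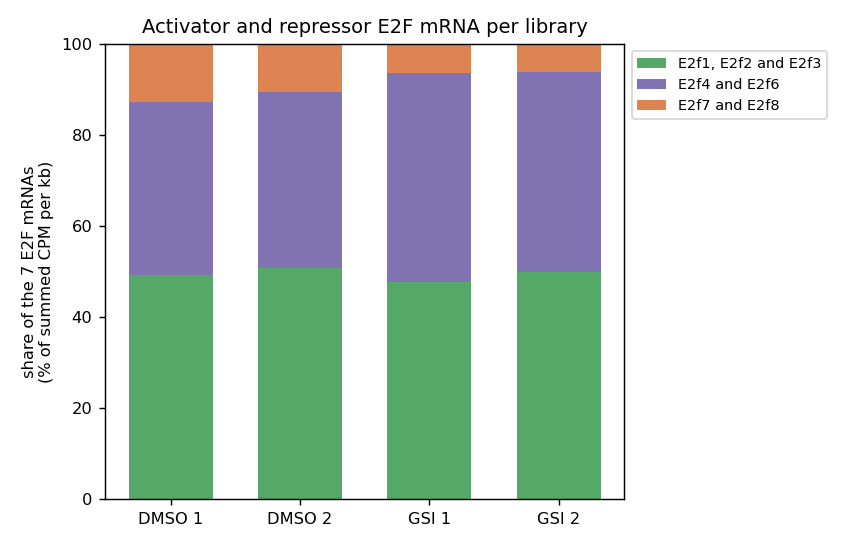
Share of the summed CPM per kb of 7 E2F genes that activators (E2f1, E2f2 and E2f3), E2f4 with E2f6, and E2f7 with E2f8 held in each of the 4 libraries, in percent. The activator share lies between 47.8% and 50.7% throughout, and the share of E2f7 and E2f8 is 12.8% and 10.6% in DMSO and 6.33% and 6.14% in GSI.

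Ratios of chosen pairs of genes within a library do not depend on its normalization. For each 100 counts of E2f4 there were 77.9 and 64.7 counts of E2f8 in DMSO and 32.8 and 33.3 in GSI. For each 100 counts of E2f4 there were 93.0 and 91.8 counts of E2f1 in DMSO and 75.6 and 76.2 in GSI. E2f1 was thus lower relative to E2f4 in both GSI libraries, although neither gene passed the test alone. For each 100 counts of E2f3 there were 38.7 and 40.8 counts of E2f2 in DMSO and 27.0 and 28.9 in GSI. Among the pocket proteins, each 100 counts of Rbl1 stood beside 77.0 and 77.3 counts of Rb1 in DMSO and 59.3 and 63.9 in GSI. The same 100 counts of Rbl1 stood beside 65.7 and 70.6 counts of Rbl2 in DMSO and 53.9 and 56.7 in GSI. Each 100 counts of E2f4 stood beside 116.4 and 115.1 counts of E2f3 in DMSO and 99.5 and 114.6 in GSI, which nearly met. None of these ratios overlapped between groups. Among all single genes tested, 34.8% were lower and 35.8% higher without overlap.

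The DP partners, with which the typical E2Fs bind DNA, fell as well. Tfdp2 was at 9.18 and 8.53 CPM in DMSO and at 5.69 and 5.83 CPM in GSI (log2 fold change -0.62 ± 0.11, FDR 0.000151). Tfdp1 was at 30.2 and 32.5 CPM in DMSO and at 25.9 and 25.1 CPM in GSI (log2 fold change -0.30 ± 0.08, FDR 0.00483). Both were lower in each GSI library, by less than E2f8 or E2f7. The call for Tfdp1 was lost without DMSO replicate 2 (FDR 0.061).

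Of the MuvB core and its partners, 4 of 7 genes fell and none rose, with a median log2 fold change of -0.37, beside 21.9% lower, 19.0% higher and a median of 0.01 over all genes tested. Mybl2, the B-Myb that joins MuvB in S phase, had a log2 fold change of -0.92 ± 0.18 (FDR 0.000378), from 2.65 and 2.56 CPM in DMSO to 1.41 and 1.34 CPM in GSI. Foxm1, which joins it in G2 for mitotic genes, had -0.86 ± 0.10 (FDR 1.39e-06), from 12.9 and 12.2 CPM to 6.60 and 7.27 CPM. Lin54, the subunit that contacts the CHR, had -0.59 and Lin9 had -0.37, the latter with an FDR of 0.0783 without DMSO replicate 1. The partners of E2f6 in its Polycomb complex (PRC1.6) had 4 of 10 lower and 2 higher around a median of 0.00, the latter close to the 19.0% of all genes that were higher. Those with the largest changes were Cbx3 (log2 fold change -0.57), Rybp (-0.44) and Tfdp1, which belongs to this list too. When any 1 library was left out, 3 to 4 genes of this list passed in place of 6.

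Cyclins and kinases of G1, which release E2Fs from pocket proteins, had 5 of 8 lower and 2 higher with a median of -0.27, where 21.9% of all genes were lower and 19.0% higher. The 2 cyclin E genes, which activate Cdk2 at the start of S phase and are E2F targets, went opposite ways. Ccne2 was at 5.67 and 4.48 CPM in DMSO and at 1.47 and 1.74 CPM in GSI (log2 fold change -1.65 ± 0.17, FDR 1.47e-07). Ccne1 was at 12.5 and 11.8 CPM in DMSO and at 23.5 and 20.5 CPM in GSI (log2 fold change 0.86 ± 0.09, FDR 3.72e-07). Each 100 counts of Ccne2 thus stood beside 221 and 263 counts of Ccne1 in DMSO and 1603 and 1174 in GSI. The D cyclins fell, with log2 fold changes of -0.65 for Ccnd2, -0.55 for Ccnd1 and -0.24 for Ccnd3. Their kinases changed little, with 0.20 for Cdk4 (FDR 0.0269) and -0.03 for Cdk6 (FDR 0.783), and Cdk2 had -0.29. The calls of Ccnd3, Cdk2 and Cdk4 did not all hold when 1 library was left out, with an FDR of 0.0778 for Ccnd3 without DMSO replicate 2 and 0.061 without GSI replicate 1, and of 0.0544 for Cdk2 without DMSO replicate 1. For Cdk4 the FDR was 0.0565 to 0.123 in the 4 fits that leave out a library.

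The CDK inhibitors, which keep pocket proteins in the form that binds E2Fs, had 2 of 7 lower and 3 higher with a median of -0.05, counts that stand beside 21.9% lower and 19.0% higher among all genes. Cdkn2c (p18), itself an E2F target, was at 16.8 and 16.6 CPM in DMSO and at 8.48 and 8.97 CPM in GSI (log2 fold change -0.94 ± 0.09, FDR 1.21e-07). Cdkn1b (p27) fell with a log2 fold change of -0.48. Those that rose were Cdkn1c (p57, 0.87), Cdkn2b (p15, 0.80) and Cdkn2a (p16 and p19ARF, 0.65), all at low levels between 0.687 and 4.90 CPM. Cdkn1a (p21) was at 2203 and 2136 CPM in DMSO and at 1983 and 1860 CPM in GSI (log2 fold change -0.18, FDR 0.0663). Without DMSO replicate 2, 3 inhibitors passed in place of 5, with Cdkn1c (FDR 0.0841) and Cdkn2b (FDR 0.162) lost. Cdkn2b was also lost without GSI replicate 2 (FDR 0.0521) and with DESeq2 (FDR 0.109).

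Among 36 genes of DNA replication and S phase that E2Fs are known to activate, 29 fell and none rose, with a median log2 fold change of -0.70. In the list of genes of G2 and mitosis that the DREAM complex represses, 28 of 29 fell and 1 rose, with a median of -1.22. Over all genes tested the counts were 2888 lower and 2504 higher with a median of 0.01. The S phase genes with the largest falls were Rrm2, a subunit of ribonucleotide reductase (log2 fold change -1.57), Clspn, an adaptor of the replication checkpoint (-1.53), and Ccna2, the cyclin of S and G2 phase (-1.37). Rrm2 was at 21.5 and 23.6 CPM in DMSO and at 7.76 and 7.47 CPM in GSI. The mitotic genes with the largest falls were Kif20a, a kinesin of cytokinesis (-1.87), Hmmr, a spindle protein (-1.74), and Cenpf, a kinetochore protein (-1.69). Kif20a was at 15.7 and 15.7 CPM in DMSO and at 4.06 and 4.54 CPM in GSI.

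Not every gene of these lists fell. The 7 S phase genes that did not pass the test had log2 fold changes from -0.14 to 0.26, and Pcna and Cdt1 were named from them after their values were seen. Pcna, the sliding clamp of DNA polymerase, was at 266 and 281 CPM in DMSO and at 266 and 279 CPM in GSI (log2 fold change -0.01, 95% interval -0.16 to 0.14). Cdt1, which loads the MCM helicase, varied more within DMSO, at 25.5 and 40.5 CPM, than between groups, with 35.9 and 43.3 CPM in GSI. Its log2 fold change of 0.26 (FDR 0.134) became 0.63 without DMSO replicate 2 (FDR 2.3e-06), 0.39 without GSI replicate 1 (FDR 0.000283) and -0.03 without DMSO replicate 1 (FDR 0.857). The mitotic gene that rose was Tpx2, a spindle assembly factor also chosen after its value was seen, at 45.9 and 48.4 CPM in DMSO and at 66.2 and 59.2 CPM in GSI (log2 fold change 0.41, FDR 0.000227).

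Apoptosis genes that E2f1 is known to activate had 4 lower and 2 higher of the 8 tested with a median of -0.19, against 21.9% lower and 19.0% higher of all genes. Bcl2l11, which encodes the BH3-only protein Bim, was at 591 and 572 CPM in DMSO and at 322 and 316 CPM in GSI (log2 fold change -0.87, FDR 6.57e-09). Bid, another BH3-only gene, rose with a log2 fold change of 0.57 from 51.5 and 52.6 CPM to 78.3 and 76.1 CPM, and Casp8ap2 fell with -0.48. The groups did not overlap for Bcl2l11, Bid or Casp8ap2, which were picked as the largest changes of the list. Among all genes tested, 34.8% were lower and 35.8% higher without overlap.

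**Figure D4:**
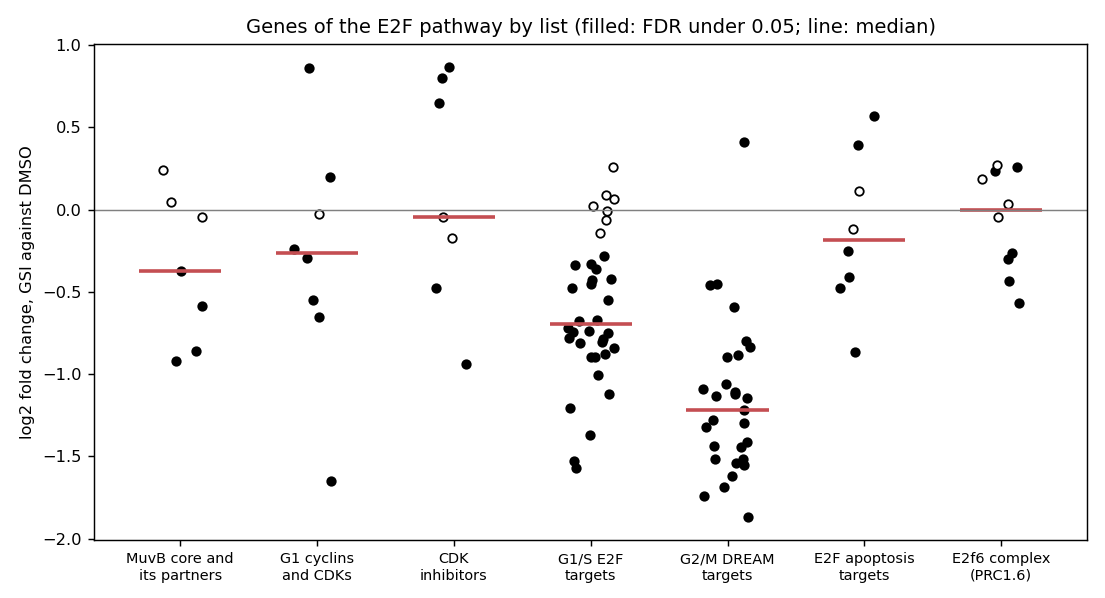
Log2 fold change, GSI against DMSO, of each tested gene in 7 lists around the E2F factors (points, filled for an FDR under 0.05; red line, median of the list; horizontal scatter has no meaning). The medians of the S phase and mitosis lists lie at -0.70 and -1.22, with Tpx2 alone above 0 among the mitotic genes, and the lists of CDK inhibitors and of the E2f6 complex have medians near 0.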

How the data were processed

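RNA-seq of activated BMMs with GSI or DMSO was analysed. The authors prepared stranded poly(A) libraries, trimmed reads with Trimmomatic, aligned them with STAR (2.5.0a per the submitters' processing notes, which list mm9 and mm10) and counted them with HTSeq. The deposited values are raw counts per gene and run, with no rows for unassigned reads. The HTSeq mode and strand setting are not given in the sources used here, and the time at which DAPT was added before activation is given differently in different places of the study. The labels do not define the last number of a sample title. It was taken as a sequencing run, since the 4 columns of a replicate differed by about the sampling noise (chi-square per degree of freedom 1.01 to 1.03), and the 16 columns were summed to 4 libraries.

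Genes were tested with edgeR 4.0.16 in R 4.3.3 (filterByExpr, TMM, quasi-likelihood F test, group only) with Benjamini-Hochberg adjustment (FDR) over 13211 genes and a threshold of 0.05. CPM used TMM-adjusted library sizes. The SE was the size of the log2 fold change divided by the square root of F. Mean log2 CPM used a prior count of 2. Floors cover counting error only. Positions, exons and lengths came from GENCODE M21 on GRCm38, which held 98.8% of the gene IDs. The genes and all lists were chosen with earlier results of these data known. Named were all 10 genes, Tfdp1, Tfdp2, Mki67, any gene of the MuvB, cyclin and inhibitor lists, and the 3 largest changes past the threshold in each other list. Outside this rule are the genes marked in the text, the cell type markers, and genes that overlap a member. The scripts were tested on simulated data. Alternatives were DESeq2 1.42.0, RLE factors, library totals alone, no filter, a minimum of 10 counts in each library, a replicate block, unsummed runs and leaving out each library.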

Additional observations from a re-analysis of the deposited data

How the results depend on the processing

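The 5 genes that fell (E2f2, E2f7, E2f8, Rb1 and Rbl2) passed an FDR of 0.05 and stayed lower in all 11 alternatives. Of the 110 values of the 10 genes under these alternatives, 99 kept their direction and their side of the threshold, 7 passed it only under the alternative and 4 changed sign. With the 16 runs as separate samples, whose spread is that of sequencing only, 7 genes were lower and 1 was higher (E2f4, FDR 0.0204), and 7582 genes of the table passed in place of 5392. Samples with the same number share only that number. Their deviations had r = 0.15 over 13211 genes, and the labels do not pair them. With the replicate number as a block, 7 of the 10 genes were lower and 6444 genes of the table passed. E2f1 (FDR 0.0382 with the block, 0.00104 with runs) and Rbl1 (0.0445 and 0.0028) were added, so that 2 activators passed in both. Leaving out 1 library gave 5 to 6 lower genes, with E2f1 added without GSI replicate 1 (-0.24, FDR 0.0499) and Rbl1 without DMSO replicate 2 (-0.26, FDR 0.0335), whereas E2f1 had -0.11 without GSI replicate 2 (FDR 0.427) and Rbl1 -0.05 without DMSO replicate 1 (FDR 0.723). It also gave 4162 to 4978 genes of the table, 1 to 2 activators, 1 to 2 DP partners, 3 to 4 genes of the E2f6 complex and 3 to 6 CDK inhibitors. DESeq2 called 4222 genes. E2f3 had 8.57e-05 without the filter and -0.0455 to 0.0284 when a library was left out, with 0.0233 without GSI replicate 1. In the same fits E2f4 had 0.0361 to 0.180, E2f6 -0.0451 to 0.149, Cdk6 -0.0647 to 0.00457 (0.00134 without DMSO replicate 1), Pcna -0.0489 to 0.0290 (0.0256 without GSI replicate 1) and Cdt1 -0.0307 to 0.635. All of these genes but Cdt1 stayed short of the threshold there, and Cdt1 passed it also without the filter (0.27), with the block (0.29) and with runs (0.24). Cdkn1a passed with DESeq2, the block, runs and without GSI replicate 1 (FDR 5.88e-08 to 0.0315). Of 473 values of 43 other genes (those named with a log2 fold change, and the macrophage markers), 437 kept direction and side of the threshold, 13 became stronger, 18 weaker and 5 changed sign. The cause of these changes was not tested.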
